A study of Mus musculus with 4 samples.

Results

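The genes that make, release and help receive Hedgehog (HH) ligands were examined in the embryonic mouse larynx. The set was chosen by symbol as 8 genes: the ligands *Shh*, *Ihh* and *Dhh*, the ligand acyltransferase *Hhat* and the release factor *Disp1*, and the co-receptors *Cdon*, *Boc* and *Gas1*. All 8 were listed among the 46983 genes of each table, and 7 were among the 16972 genes with a mean of at least 1 TPM over the 4 libraries. TPM gives the transcripts of a gene, scaled for their length, as a share of the library. *Ihh*, with a mean of 0.950 TPM, was below that limit and was not tested.

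Larynx tissue was collected at E10.5 (32 to 35 somites) as pools of 3 larynxes, with 2 *Shh-/-* pools (1 and 2) and 2 wild-type (WT) pools (4 and 6) of Swiss Webster embryos. The mutant allele was Shhtm1amc, a germline mutation carried on the same background. The series design gives the mutant embryos as *Shh-/-*, while the sample labels write Shh+/- for the same pools, and the name *Shh-/-* is used here. Nothing in the labels says whether the pools came from separate litters, so that p-values measure the spread between these pools alone.

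HH ligands are made as precursors that cleave themselves and receive a lipid at each end, with HHAT attaching the palmitate. The transporter-like protein DISP1 releases the lipid-bearing ligand from the producing cell, and CDON, BOC and GAS1 on receiving cells bind it and present it to the receptor PTCH1. In the foregut, SHH is made by the endodermal epithelium and received mostly by the mesenchyme around it, where *Ptch1* and *Gli1* are transcribed in response. In several tissues, transcription of the co-receptors is known to be lower where HH signaling is high.

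Depth was derived from the ratio of coverage to FPKM, as its median over genes with a single annotated transcript. It was 1.37 and 3.13 gigabases of aligned sequence in *Shh-/-* pools 1 and 2 and 2.85 and 2.97 gigabases in WT pools 4 and 6. *Shh-/-* pool 1 was thus the least deeply sequenced. Each library had between 16432 and 17117 genes at 1 TPM or more. Over all tested genes, limma on log2(TPM + 1) gave 95 genes higher and 28 lower in *Shh-/-* pools at an adjusted p under 0.05, and the median log2 fold change (*Shh-/-* minus WT) was 0.08. Among the markers of other cell types, the summed TPM of 12 neuronal genes was 847 and 949 in *Shh-/-* pools against 231 and 174 in WT pools. In bulk tissue, fewer cells of a type and less RNA per cell cannot be told apart.

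*Gas1* RNA was the only member to pass the test, and it rose 3.74-fold. *Boc*, *Cdon*, *Disp1* and *Dhh* were each 2.11-fold to 2.53-fold higher on average in *Shh-/-* pools, with both mutant pools above both WT pools, while *Shh* was lower in both. For *Hhat* the groups also stood apart, by a smaller difference, and for *Ihh* they overlapped. At an adjusted p under 0.05, *Gas1* was the 1 member called higher, where 0.56% of tested genes were. At an adjusted p under 0.10 in either direction, 4 members were called (*Gas1*, *Boc*, *Disp1* and *Shh*), against 5.06% of tested genes. At an unadjusted p under 0.05, 5 members were higher (*Dhh*, *Disp1*, *Cdon*, *Boc* and *Gas1*), where 17.5% of tested genes were, and 1 was lower (*Shh*), where 7.22% were. Both *Shh-/-* pools lay above both WT pools for 6 members, as they did for 38% of tested genes, and below them for 1 member, as for 22.7%. The median log2 fold change of the 7 tested members was 1.02.

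**Figure D1:**
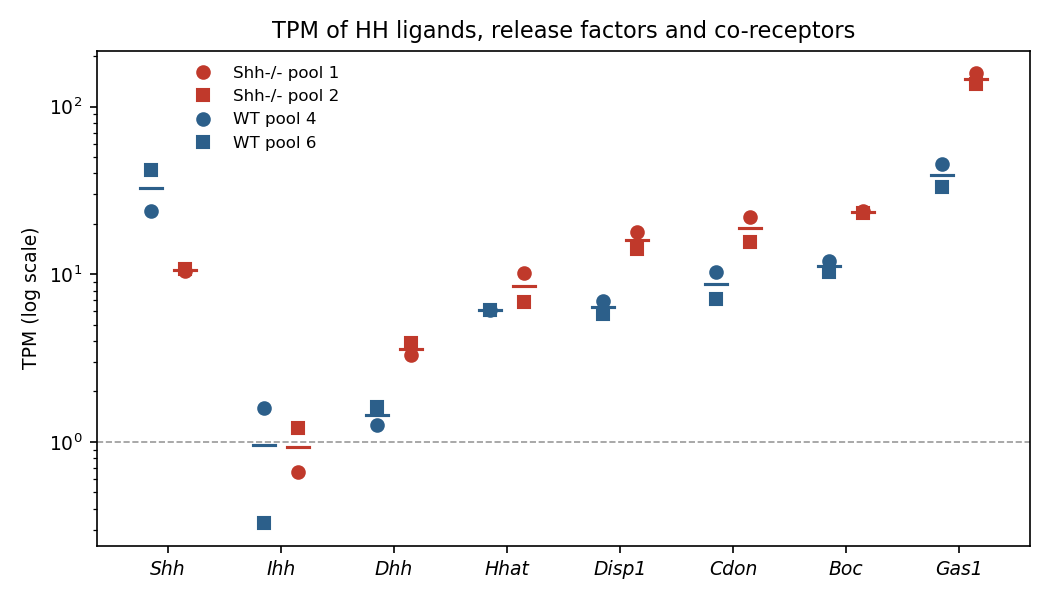
TPM of the 8 genes (log axis) in each library, with circles and squares for the 2 pools of each genotype, short lines for group means and a dashed line at 1 TPM. *Gas1* has the highest mean in both genotypes, *Shh* is the only gene whose *Shh-/-* pools both lie below both WT pools, and the *Ihh* pools overlap.

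*Shh* (chr5:28456815-28467256, mm10, minus strand), the targeted gene and the main HH ligand of foregut endoderm, was at 10.4 TPM in *Shh-/-* pool 1, 10.8 TPM in *Shh-/-* pool 2, 23.7 TPM in WT pool 4 and 42.1 TPM in WT pool 6. The mutant pools were nearly equal, the WT pools differed 1.78-fold, and the groups did not overlap. Means were 10.6 ± 0.261 and 32.9 ± 13.0 TPM (SD, n = 2 each) in mutant and WT pools, so that the WT mean was 3.11-fold higher. The log2 fold change was −1.49 (SE 0.28, 95% interval −2.23 to −0.76), with an adjusted p of 0.0895 in limma. Of all tested genes, 154 had a lower log2 fold change.

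The deposited values are given per gene and not per exon. The sources used here do not say which part of *Shh* the allele lacks, so that RNA read from *Shh* in mutant pools does not check the genotype. The pathway readouts *Ptch1* and *Gli1* did separate the groups. *Ptch1*, the HH receptor gene, was at 12.9 and 13.8 TPM in *Shh-/-* pools against 57.8 and 55.1 TPM in WT pools (adjusted p = 0.0319 in limma), and *Gli1*, a transcription factor gene induced by HH signaling, was at 3.20 and 8.45 TPM against 41.7 and 32.9 TPM (adjusted p = 0.0715).

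Because *Shh* is made by epithelium in this tissue, its level was set against 12 epithelial markers. Their summed TPM was 683 to 791 in *Shh-/-* pools and 721 to 731 in WT pools, and none was at 0. At the adjusted threshold 0 of 12 passed in limma. Unadjusted, 1 was higher and 3 were lower, where 17.5% and 7.22% of all tested genes were. The 3 lower were the transcription factor genes *Foxa1*, *Foxa2* and *Nkx2-1*. Mean TPM in *Shh-/-* and WT pools was 15.0 and 31.7 for *Foxa1* and 4.88 and 16.9 for *Nkx2-1*. *Shh* minus the mean of the 12 markers, both as log2(TPM + 1), was −1.81 and −1.56 in *Shh-/-* pools. In WT pools it was −0.86 and −0.18, a difference of −1.16. With *Cdh1* and *Epcam* alone, the genes of the adhesion proteins E-Cadherin and EPCAM, the difference was −1.45. The ratio of *Shh* to *Epcam* TPM was 0.0843 and 0.107 in *Shh-/-* pools and 0.263 and 0.488 in WT pools, so that *Shh* was lower in mutant pools relative to these general epithelial genes.

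Relative to *Foxa2*, a transcription factor gene of foregut endoderm, *Shh* was not lower. *Foxa2* was at 5.34 and 9.12 TPM in *Shh-/-* pools and 29.2 and 39.8 TPM in WT pools, and the ratio of *Shh* to *Foxa2* TPM was 1.95 and 1.18 in *Shh-/-* pools against 0.813 and 1.06 in WT pools. The direction of the *Shh* difference thus differed between *Epcam* and *Foxa2*, the only epithelial genes it was divided by singly. Of the 12 epithelial markers, *Foxa2* had the most negative log2 fold change (−2.13). *Shh* is also transcribed by notochord and floor plate, whose 8 markers summed to 21.3 and 22.4 TPM in *Shh-/-* pools and 21.4 and 23.8 TPM in WT pools. *Noto* was listed at 0 in all libraries but WT pool 4, and 0 of the 6 tested markers passed an adjusted or an unadjusted p of 0.05 in limma.

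*Dhh* (chr15:98893031-98898540, minus strand), a ligand gene known from Schwann cells, endothelium and testis, was at 3.31 and 3.89 TPM in *Shh-/-* pools 1 and 2 and at 1.27 and 1.61 TPM in WT pools 4 and 6. Both mutant pools were above both WT pools, at low levels throughout. The means were 3.60 ± 0.411 and 1.44 ± 0.246 TPM (SD, n = 2 each), a 2.50-fold ratio. The log2 fold change was 0.92 (SE 0.21, 95% interval 0.37 to 1.46) and did not pass the threshold (adjusted p = 0.111 in limma). Its mean coverage of 1.80 to 6.06 reads per base was the basis of these values. Corrected for the GC content and length of transcripts (a step added after the data were seen), the log2 fold change was 0.60. Its 95% interval was then −0.0045 to 1.21 and included 0.

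Markers of cell types that transcribe *Dhh* were also higher in mutant pools. The 11 neural crest and Schwann precursor markers summed to 258 and 226 TPM in *Shh-/-* pools and to 186 and 155 TPM in WT pools. Of the 10 tested, *Ngfr* alone passed the adjusted threshold in limma, where 0.56% of all tested genes were called higher. The 8 endothelial markers summed to 359 and 417 TPM against 242 and 229 TPM, with *Tie1* passing.

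Ratios of *Dhh* to these markers gave different answers. *Dhh* per 1000 TPM of neural crest markers was 12.8 and 17.2 in *Shh-/-* pools and 6.81 and 10.4 in WT pools, and per 1000 TPM of endothelial markers it was 9.22 and 9.33 against 5.23 and 7.06. Relative to *Sox10* alone, a transcription factor gene of neural crest and its Schwann lineage, *Dhh* was at 0.0974 and 0.136 in *Shh-/-* pools and 0.0696 and 0.138 in WT pools, where the groups overlapped. The part of these cell types in the *Dhh* difference was not tested.

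*Ihh* (chr1:74945315-74951672, minus strand), best known from growing cartilage and gut endoderm, was at 0.659 and 1.22 TPM in *Shh-/-* pools and 1.60 and 0.328 TPM in WT pools. The WT pools differed 4.88-fold and enclosed both mutant values. With no filter on TPM, the log2 fold change was 0.05 with a 95% interval of −1.03 to 1.13, an interval that holds differences of either sign.

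The 3 ligands together summed to 14.4 and 15.9 TPM in *Shh-/-* pools and to 26.6 and 44.1 TPM in WT pools, and the log2 ratio of the means was −1.22. Without WT pool 6, the library with the highest *Shh* level, it was −0.81. *Shh* made up 72.4 and 67.8% of ligand TPM in *Shh-/-* pools and 89.2 and 95.6% in WT pools, and *Dhh* made up 23.0 and 24.5% against 4.77 and 3.66%. Since the shares of a library sum to a fixed total, a higher *Dhh* share and a lower *Shh* share are not separate results. With 2 pools per genotype the smallest p of an exact permutation test is 0.333. None of the 26 sums, shares and ratios compared in this way could pass a threshold of 0.05 (adjusted over the 26, the smallest was 0.361).

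**Figure D2:**
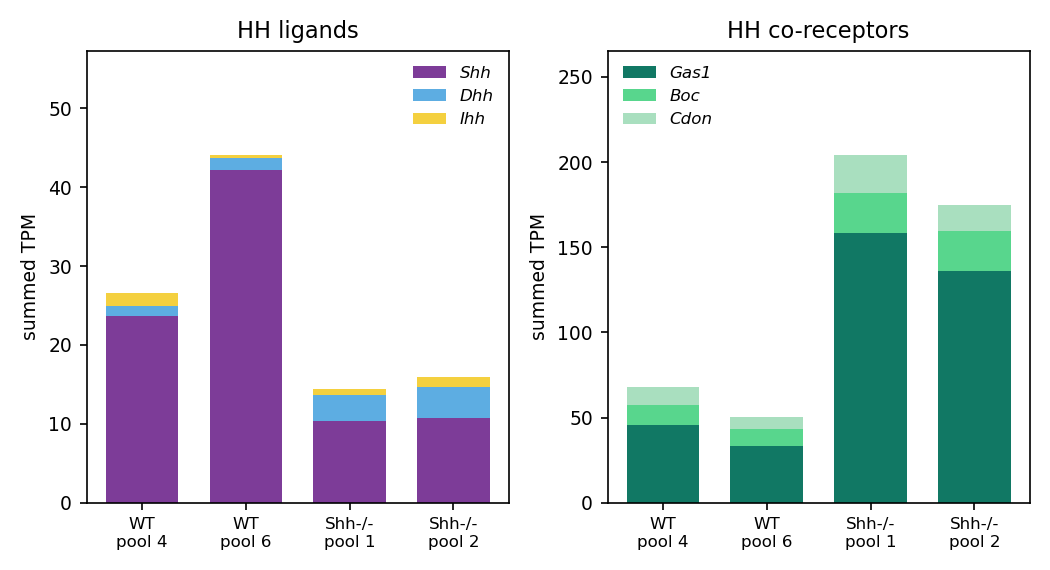
Summed TPM of the 3 ligands (left) and the 3 co-receptors (right) in each library, with stacked bars coloured by gene. Ligand bars reach 26.6 and 44.1 TPM in WT and 14.4 and 15.9 TPM in *Shh-/-* pools, while co-receptor bars reach 67.8 and 50.6 TPM in WT and 204 and 175 TPM in *Shh-/-* pools.

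*Hhat* (chr1:192496711-192771223, minus strand), which encodes the acyltransferase that palmitoylates HH ligands, was at 10.2 and 6.88 TPM in *Shh-/-* pools, with 6.10 and 6.16 TPM in WT pools. Only *Shh-/-* pool 1 stood well above the others, and *Shh-/-* pool 2 was just above WT. The log2 fold change was 0.40 (SE 0.22, 95% interval −0.18 to 0.98), with an adjusted p of 0.321 in limma, and it was 0.14 without *Shh-/-* pool 1. The coverage column held 3.03 to 3.74% of the coverage that the FPKM value implies, and a fit on coverage gave 0.11.

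*Disp1* (chr1:183086266-183221522, minus strand), which encodes the protein that exports lipid-bearing ligand, was at 18.0 and 14.1 TPM in *Shh-/-* pools, with 6.92 and 5.79 TPM in WT pools. Each mutant pool was above both WT pools. Means of 16.1 ± 2.73 and 6.35 ± 0.796 TPM (SD, n = 2 each) gave a 2.53-fold ratio, and the log2 fold change was 1.21 (SE 0.19, 95% interval 0.72 to 1.70), with an adjusted p of 0.0715 in limma. BC085271, a transcribed locus on the same strand within the bounds of *Disp1*, was at 40.2 and 35.9 TPM in *Shh-/-* pools and 35.8 and 35.4 TPM in WT pools, so that its pools lay in the same order as those of *Disp1* but much closer together. *Disp1* per *Shh* TPM was 1.73 and 1.31 in *Shh-/-* pools and 0.292 and 0.137 in WT pools, a ratio that also holds the lower *Shh* of mutant pools.

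*Gas1* (chr13:60174405-60177365, minus strand), which encodes a lipid-anchored membrane protein that binds HH ligands, was at 158 and 136 TPM in *Shh-/-* pools, with 45.5 and 33.1 TPM in WT pools. No other member reached these levels in mutant pools, and both mutant pools were far above both WT pools. Means were 147 ± 15.6 and 39.3 ± 8.78 TPM (SD, n = 2 each). The log2 fold change was 1.89 (SE 0.18, 95% interval 1.42 to 2.37), with an adjusted p of 0.0422 in limma, and 110 tested genes had a higher one. With either pool of either genotype left out, *Gas1* no longer passed. Its log2 fold change was then 1.78 without *Shh-/-* pool 1 (adjusted p = 0.149), 1.999 without *Shh-/-* pool 2 (0.0974), 2.12 without WT pool 4 (0.130) and 1.67 without WT pool 6 (0.111). After the correction for GC content and transcript length it was 1.48 and passed (adjusted p = 0.037).

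*Boc* (chr16:44485045-44558897, minus strand), which encodes a transmembrane co-receptor with immunoglobulin and fibronectin domains, was at 23.8 and 23.4 TPM in *Shh-/-* pools, with 12.0 and 10.4 TPM in WT pools. Spread within each genotype was small beside the gap between them. Means of 23.6 ± 0.295 and 11.2 ± 1.14 TPM (SD, n = 2 each) gave a 2.11-fold ratio, and the log2 fold change was 1.02 (SE 0.14, 95% interval 0.65 to 1.38) at an adjusted p of 0.0625 in limma, short of the threshold. Of the 7 tested members *Boc* had the smallest standard error. Corrected for GC content and transcript length, it was at 0.63.

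*Cdon* (chr9:35421128-35507652, plus strand), whose product resembles BOC in build, was at 22.1 and 15.5 TPM in *Shh-/-* pools, with 10.3 and 7.17 TPM in WT pools. The groups did not overlap, although the pools of each genotype differed 1.42-fold and 1.43-fold. The log2 fold change was 1.03 (SE 0.25, 95% interval 0.38 to 1.68), with an adjusted p of 0.119 in limma. Its size was close to that of *Boc*, with a wider interval.

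**Figure D3:**
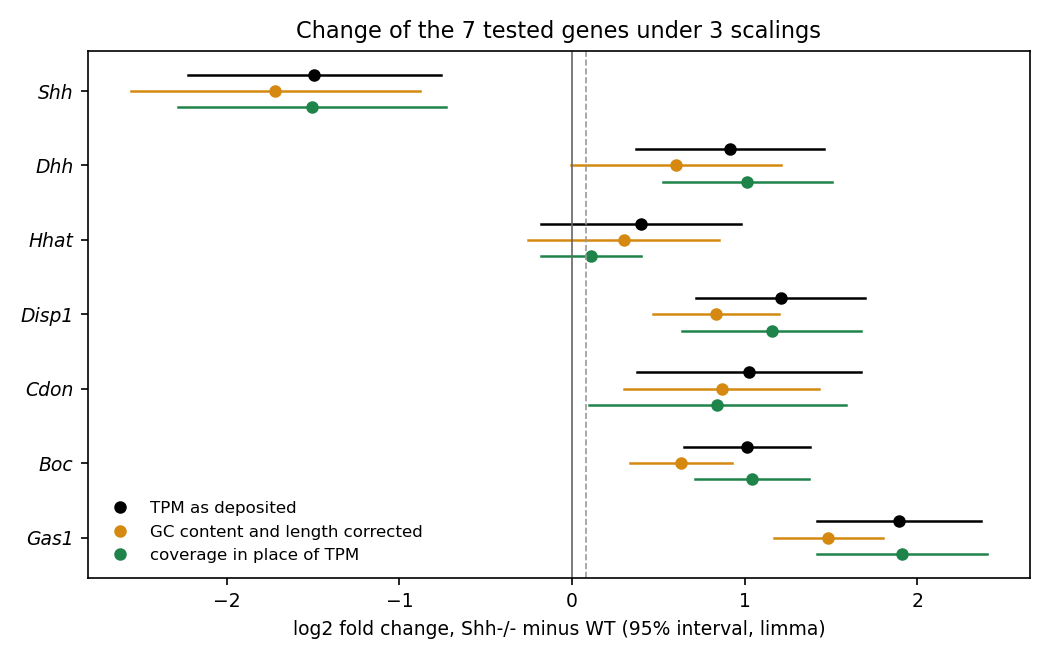
Log2 fold change (*Shh-/-* minus WT) of the 7 tested genes with 95% intervals from limma, for TPM as deposited, for values corrected for GC content and transcript length, and for coverage. The solid line marks 0 and the dashed line the median of all tested genes, 0.08. *Shh* lies below 0 and *Disp1*, *Cdon*, *Boc* and *Gas1* above it under each scaling, while the *Hhat* intervals include 0. The *Dhh* interval includes 0 only after the correction for GC content and transcript length.

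The 3 co-receptors together summed to 204 and 175 TPM in *Shh-/-* pools and to 67.8 and 50.6 TPM in WT pools, a 3.20-fold ratio of the means. *Gas1* made up 77.5 and 77.8% of the sum in *Shh-/-* pools against 67.2 and 65.4% in WT pools. *Boc* correspondingly held 11.6 and 13.3% against 17.7 and 20.5%, and *Cdon* 10.8 and 8.87% against 15.1 and 14.2%. Per TPM of *Ptch1*, the receptor they present ligand to, co-receptor TPM was 15.8 and 12.7 in *Shh-/-* pools and 1.17 and 0.920 in WT pools. Per TPM of ligand it was 14.2 and 11.0 against 2.55 and 1.15. *Ptch1* and summed ligand TPM were themselves lower in mutant pools, so that both ratios are in part the differences of their divisors.

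The order of levels by TPM, which is scaled for length, changed at *Shh*. In WT pools the order of means was *Gas1*, *Shh*, *Boc*, *Cdon*, *Disp1*, *Hhat*, *Dhh* and *Ihh*. Neighbours whose pools overlapped in WT were *Gas1* with *Shh*, *Disp1* with *Hhat*, and *Dhh* with *Ihh*. In *Shh-/-* pools *Shh* was at rank 5 instead of 2, below *Disp1*, and the rest kept their order. *Cdon* and *Disp1* were the only neighbours whose mutant pools overlapped.

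The summed levels of several marker lists were also higher in *Shh-/-* pools. The 8 mesenchymal markers summed to 1266 and 1166 TPM in *Shh-/-* pools and to 866 TPM in each WT pool, with none at 0. Of the 8, *Twist1* alone passed in limma (147 and 125 against 46.1 and 43.8 TPM), where 0.56% of all tested genes were called higher. Both mutant pools were above both WT pools for 5, as they were for 38% of all tested genes. *Col3a1* and *Tbx18* overlapped, and *Tcf21* was lower, at 37.7 and 70.2 against 90.3 and 88.4 TPM. Per 1000 TPM of these markers, *Gas1* was at 125 and 117 in *Shh-/-* pools against 52.6 and 38.2 in WT pools, *Boc* at 18.8 and 20.0 against 13.8 and 12.0, *Cdon* at 17.5 and 13.3 against 11.9 and 8.28, and *Disp1* at 14.2 and 12.1 against 7.99 and 6.69. All 4 genes were higher in both mutant pools relative to this sum, but for 3 of them this changed with the marker. Relative to each of the 8 markers singly, *Gas1* was higher in both mutant pools for 8, *Boc* for 5, *Cdon* for 4 and *Disp1* for 5. Relative to *Twist1*, *Boc* was lower in both mutant pools (0.162 and 0.187 against 0.260 and 0.237), as were *Cdon* and *Disp1*, and relative to *Prrx1* these 3 overlapped.

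Relative to the summed neuronal markers the order turned. The 12 neuronal markers had a median log2 fold change of 2.03, with none at 0. In limma 7 of them were called higher, where 0.56% of all tested genes were. Per 1000 TPM of their sum, *Gas1* was at 187 and 144 in *Shh-/-* pools and 197 and 190 in WT pools, *Boc* at 28.1 and 24.6 against 51.9 and 59.5, *Cdon* at 26.1 and 16.4 against 44.5 and 41.1, and *Disp1* at 21.2 and 14.9 against 30.0 and 33.2. All 4 genes, which neural tissue also transcribes, were lower in mutant pools relative to this sum. Relative to each of the 12 markers singly, both mutant pools were lower for 6 markers and higher for 4 in *Gas1*, and lower for 10 in *Boc* and for 8 each in *Cdon* and *Disp1*, the remaining markers giving overlap. The 11 muscle markers summed to 234 and 364 TPM in *Shh-/-* pools and to 127 TPM in each WT pool. Of the 10 tested, 2 were called higher, again beside 0.56% of all tested genes. The part of these cell types in the differences of the co-receptors and *Disp1* was not tested.

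The region before the start of transcription is shown for *Gas1*, the gene that passed, and for *Disp1* and *Dhh*, a release factor and a ligand that were higher beside it, to show what these genes do and do not share in sequence. RefSeq promoter entries (GRCm38.p6) matched 6 of the 8 members, with *Shh* and *Boc* named only. Each sequence is the 250 bases before a start site, 5′ to 3′ on the strand of the gene, with CG dinucleotides in capitals. They lie at chr13:60177536-60177785 (*Gas1*), chr1:183221530-183221779 (*Disp1*, the outermost of its entries) and chr15:98898541-98898790 (*Dhh*), all on the minus strand.
Gas1: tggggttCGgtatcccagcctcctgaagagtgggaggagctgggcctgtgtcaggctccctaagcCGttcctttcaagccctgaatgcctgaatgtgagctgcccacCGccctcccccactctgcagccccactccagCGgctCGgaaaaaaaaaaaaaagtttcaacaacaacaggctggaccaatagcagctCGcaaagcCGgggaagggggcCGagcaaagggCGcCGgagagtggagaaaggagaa
Disp1: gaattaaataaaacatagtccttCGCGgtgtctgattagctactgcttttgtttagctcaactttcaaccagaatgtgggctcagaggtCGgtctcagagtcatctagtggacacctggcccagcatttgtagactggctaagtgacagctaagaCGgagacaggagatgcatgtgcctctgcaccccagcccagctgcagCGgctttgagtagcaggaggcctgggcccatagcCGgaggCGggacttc
Dhh: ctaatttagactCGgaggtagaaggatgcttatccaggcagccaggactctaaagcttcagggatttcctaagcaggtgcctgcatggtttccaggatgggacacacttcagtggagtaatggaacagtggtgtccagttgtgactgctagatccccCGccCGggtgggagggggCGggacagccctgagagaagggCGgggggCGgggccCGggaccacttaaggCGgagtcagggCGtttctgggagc
The windows held 10 CG dinucleotides for *Gas1*, 7 for *Disp1* and 9 for *Dhh*, and the median over 32851 windows of the same length was 6. The letters GACCACCCA (TGGGTGGTC on the other strand), the consensus bound by GLI transcription factors, were searched on both strands. They were found in 0.225% of all windows, and with up to 1 mismatch in 5.79%. None of the 7 windows of the 6 members held them, also with 1 mismatch, which says only that these letters are not in those windows. The only *Cdon* window preceded a start at chr9:35452076, and the second *Disp1* window a start at chr1:183147557. Both starts lie within the bounds of their gene, so that the region before the outermost *Cdon* start was not searched.

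Other HH genes were described by lists. Of 17 HH shuttle, matrix and surface genes outside the members, 12 were tested, of which 0 rose and 1 fell in limma. Unadjusted, 7 were higher and 1 was lower, where 17.5% and 7.22% of all tested genes were. The median log2 fold change of the 12 was 0.46 against 0.08 for all tested genes. The gene that fell was *Hhip*, which encodes a decoy that binds ligand and is itself an HH target, at 0.149 and 0.635 TPM in *Shh-/-* pools and 11.3 and 15.2 TPM in WT pools. The next largest differences were in *Gpc4*, a glypican gene, at 39.8 and 26.9 against 12.5 and 11.7 TPM, in *Lrp2*, which encodes an endocytic receptor, at 3.38 and 2.63 against 14.5 and 2.45 TPM, and in *Scube1*, of a family of secreted proteins that carry ligand, at 35.1 and 25.8 against 19.1 and 13.4 TPM. WT pool 4 alone was high for *Lrp2*. *Hhatl* was listed at 0 in every library, and *Disp3* was not found under that symbol.

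Of 14 genes of HH receptors and signal transduction, 1 fell and 0 rose in limma. Unadjusted, 3 were lower and 6 were higher, where 7.22% and 17.5% of all tested genes were. The median of the 14 was 0.32. The gene that fell was *Ptch1*. *Gli2*, an effector gene, was at 21.9 and 16.5 TPM in *Shh-/-* pools against 14.1 and 9.45 TPM in WT pools.

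All 10 HH targets of foregut mesenchyme had a negative log2 fold change, with a median of −2.31. The list was chosen with earlier results of these data known, so that its shared direction is not a separate test. Of these 10 genes, 4 fell at the adjusted threshold, namely *Hhip*, *Ptch1*, *Foxf2* and *Foxl1*, where 28 of all 16972 tested genes did. At an unadjusted p under 0.05 in limma, 9 of the 10 were lower, where 7.22% of tested genes were. The forkhead gene *Foxf2* was at 0.241 and 1.24 TPM in *Shh-/-* pools and 20.3 and 20.0 TPM in WT pools. *Foxf1*, its relative, was at 0.848 and 9.57 TPM against 72.3 and 64.6 TPM, so that the mutant pools differed widely from each other while both stayed below WT. *Foxl1*, another forkhead gene, was at 0.462 and 0.941 TPM against 8.43 and 7.26 TPM, and *Tbx5*, a T-box gene, at 1.22 and 4.71 TPM against 19.4 and 12.6 TPM. These lists share genes, among them *Ptch1*, *Gli1* and *Hhip*, and are not independent of each other.

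**Figure D4:**
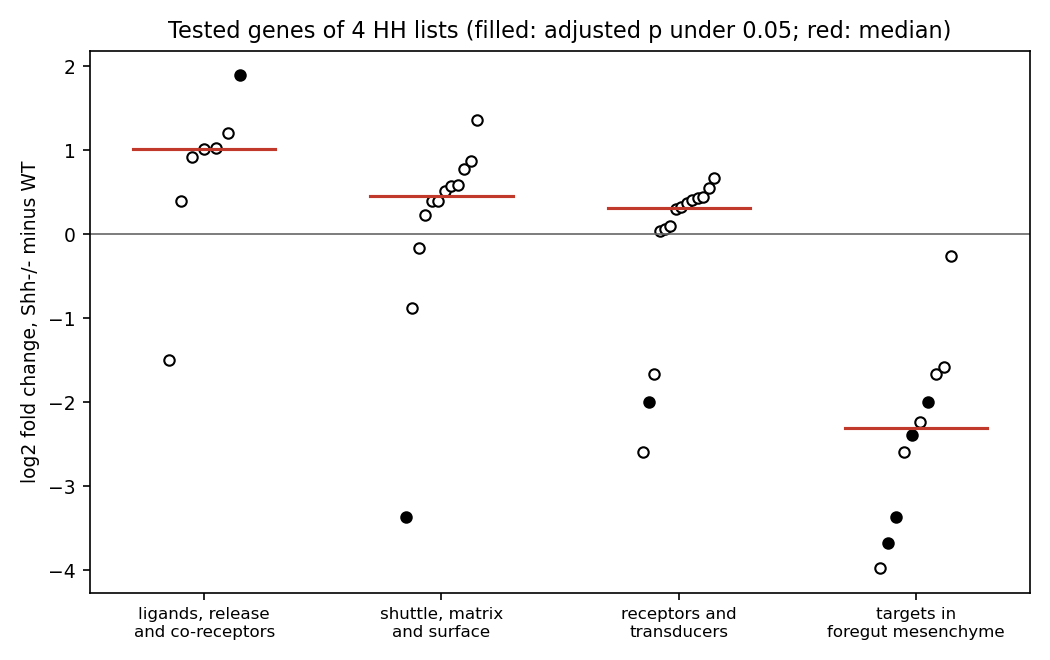
Log2 fold change (*Shh-/-* minus WT) of each tested gene in 4 HH lists, with filled points for an adjusted p under 0.05 in limma and red lines for list medians. The median is 1.02 for ligands, release factors and co-receptors, 0.46 for shuttle, matrix and surface genes, 0.32 for receptors and transducers, and −2.31 for targets in foregut mesenchyme.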

How the data were processed

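RNA of 4 pools of 3 E10.5 larynxes was sequenced from poly(A)-selected, stranded libraries. Per the labels, 200 to 310 ng of RNA was obtained per pool, with RNA integrity numbers of 7.7 to 9. Both values were highest in WT pool 6. The submitters' processing notes name mm10, HISAT2 2.1.0 and StringTie 1.3.6. The deposited gene tables hold the mean read coverage of each gene without normalization. They hold FPKM values, in which the authors divided coverage by the aligned bases of the library, and TPM values, which the authors scaled to a sum of 1000000 per library. No read counts were used, so no counting interval was computed, and precision rests on 2 pools per group. A listed 0 may be a failed estimate, since all 37 mitochondrial genes are at 0 in every library.

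Rows were summed per gene ID. Genes were compared with limma 3.58.1 (R 4.3.3), a linear model with empirical Bayes variances and a trend on mean level. Values were log2(TPM + 1), for a mean TPM over the libraries of 1 or more, without covariates and with Benjamini-Hochberg adjustment over all 16972 genes at a threshold of 0.05. Fold changes on this scale understate changes of low genes. Ratios of means are of TPM. Ratios to single markers were given without a test. Per-library sums and ratios were compared by two-sided exact permutation. The limma fit was tested on simulated data. GENCODE M21 gave length and GC content for 46488 gene IDs without version suffix, and promoter sequences are from RefSeq (GRCm38.p6).

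The members and gene lists were chosen with earlier results of these data known. The genes named are all 8 members, *Ptch1* and *Gli1*, the called genes of each other HH list and the 3 with the next largest changes, up to 3 genes of a marker list, and the 3 genes nearest in profile to *Shh*, *Cdon*, *Boc* and *Gas1*. Some genes that this rule would name are not reported here. BC085271, *Hhatl*, *Disp3*, *Noto*, *Col3a1*, *Tbx18* and *Tcf21* fall outside it and were named after their values were seen.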

Additional observations from a re-analysis of the deposited data

How the results depend on the processing

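Over 16 alternatives, limma called between 0 and 858 genes, against 123. The count was 858 at an adjusted p under 0.10, 69 with a pseudocount of 0.1, 25 with coverage in place of TPM, 0 with no filter on TPM (5011 at an unadjusted p under 0.05), and 0 to 16 with each pool left out in turn. The other alternatives, among them FPKM, quantile normalization, median centring, rescaling without haemoglobin genes and a mean TPM of at least 5, stayed within 1.5 times. The 1 member called became 4 at an adjusted p under 0.10. It became 0 with no filter, with eBayes without trend, with coverage and with any 1 pool left out (0 to 0), where 6 to 7 members had an unadjusted p under 0.05. *Gas1* then had an adjusted p of 0.146 with no filter, 0.0571 without trend and 0.0559 with coverage. A lone pool was assumed to vary like the other group.

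No member changed sign under any alternative run for it. Log2 fold changes ranged from −1.90 to −1.09 for *Shh*, 0.60 to 1.27 for *Dhh*, 0.11 to 0.66 for *Hhat*, 0.83 to 1.37 for *Disp1*, 0.78 to 1.27 for *Cdon*, 0.63 to 1.11 for *Boc* and 1.48 to 2.12 for *Gas1*. Median centring shifted the median of all genes by −0.13, and *Hhat* was then at 0.27. The log2 ratio of summed ligand TPM was −1.54 to −0.81 with each pool left out. The correction for GC content and length (natural splines with 5 degrees of freedom) and the use of coverage were chosen after seeing the data. The cause of these shifts was not tested. No paired analysis was possible because the pools of the 2 genotypes share no replicate numbers.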

Other observations

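The genes whose profiles over the 4 libraries lay nearest to those of 4 members were found by Euclidean distance between centred log2(TPM + 1) values, among 12531 other genes averaging 5 TPM or more. With 2 pools per group these distances are a description of the 4 libraries. *Tceb1* (distance 0.25), *Cd55* (0.25) and *Plagl1* (0.33) were nearest to *Shh*, and each was, like *Shh*, higher in WT pool 6 than in WT pool 4. *Cd55*, which encodes a complement regulator, was at 8.90 and 9.67 TPM in *Shh-/-* pools, with 19.7 and 30.0 TPM in WT pools 4 and 6.

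For *Gas1* the nearest profiles were those of *Hpca* (0.11), *Rundc3a* (0.11) and *Draxin* (0.13). *Hpca* encodes a neuronal calcium sensor and *Draxin* an axon guidance protein, and *Draxin* was at 22.0 and 17.3 TPM in *Shh-/-* pools and 4.92 and 3.70 TPM in WT pools. For *Boc* they were *Nos3*, the endothelial nitric oxide synthase gene, *Kif5a*, a neuronal kinesin gene, and *Unc13b*, a gene of synaptic vesicle priming, at distances of 0.05 to 0.07. For *Cdon* they were *Klhdc4* (0.05), *Irf5* (0.09) and *Arhgef40* (0.10).

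In the deposited tables, 4827 tested genes had a coverage under 50% of that implied by their FPKM. Among the members these were *Hhat* and *Cdon*, with 3.03 to 3.74% and 15.9 to 19.2% of the implied coverage.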
